A study of Mus musculus with 24 samples.

Results

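The first hour after 4-thiouridine (4SU) was taken away was examined in control preleukemic mouse cells, from the 6 libraries whose titles give the control genotype and 0 or 60 min of chase, 3 at each time, out of 24 libraries in the series. The cells were c-Kit+ fetal liver cells transformed with Meis1 and Hoxa9, a transcription factor pair that holds myeloid progenitors in a self-renewing, undifferentiated state. All groups carried that transformation (the label for it reads Hox9/Meis1) and grew in IMDM with serum, stem cell factor, IL-6 and IL-3. All were fed 4SU at 2.9 μM for 12 h before the medium was exchanged for one free of 4SU, and the 0 min cells were collected right after that exchange. The series set control cells beside cDKO cells, which lack the terminal uridylyltransferases Tut4 and Tut7 through a blood-specific Cre, and followed both for 0, 60, 180 and 540 min. The labels name the control only as control. By the study's methods the triplicates are biological, each from a different animal or embryo, and the labels do not say whether a replicate number marks the same embryo at each time.

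Every library of one chase time carries the same batch label, which is the chase time itself. Time without 4SU, the medium exchange and any batch therefore cannot be told apart in any comparison below. There was also no library of unlabelled cells among these files, so the part of each conversion rate that comes from sequencing error or strain variants is unknown.

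Each messenger RNA is degraded at its own pace, and its level is set by how fast it is made and how fast it is destroyed. In SLAM-seq, RNA made in the presence of 4SU carries the analogue at some uridines, alkylation makes reverse transcriptase read those positions as cytidine, and T-to-C conversions in the reads then mark older, labelled molecules during a chase. Transcripts of immediate early genes, cytokine feedback inhibitors and many transcription factors are known for rapid turnover, whereas those of ribosomal proteins and metabolic enzymes persist.

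Per gene, 3 quantities were taken from the 3′UTR tables. Abundance is the read count, printed as reads per 1000000 reads in 3′UTRs (CPM). The conversion rate is the number of converted T positions over all covered T positions, in percent. The labelled pool is the number of conversions per 1000000 reads. The rate falls when unlabelled RNA makes up more of a transcript, by new synthesis alone or in place of labelled RNA that was lost. Loss of labelled RNA lowers the pool, and added unlabelled RNA does not. Where labelled and unlabelled RNA are lost in the same proportion, abundance and pool fall and the rate does not. The log2 change of the rate is close to that of the pool minus that of abundance, so the 3 are not independent. All are relative to the library total, and in bulk samples fewer cells of a type and less RNA per cell cannot be told apart.

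The libraries were even in depth. The 3 libraries at 0 min held 5154722 to 6577802 reads in 3′UTRs and the 3 at 60 min held 4865238 to 5513483. The share of filtered reads falling in 3′UTRs was 48.5 to 49.3% at 0 min and 50.2 to 50.9% at 60 min, so it was higher in every 60 min library, and its part in the results was not tested. Markers of myeloid progenitors were present: Elane ran from 1215 to 1574 CPM, Prtn3 from 2742 to 3022 CPM and Kit from 66.7 to 86.2 CPM over the 6 libraries. Cd3e, Hba-a1 and Ltf, of the T and NK cell, erythroid and mature neutrophil lists, had 0 reads in all 6. Other members of those lists had reads. The T and NK cell markers summed to between 13 and 21.9 CPM at 0 min and between 10.6 and 19.5 CPM at 60 min. Those of stroma and hepatocytes summed to between 60.3 and 122 CPM and between 59.8 and 121 CPM. The 15 myeloid progenitor markers summed to between 12178 and 12654 CPM at 0 min and between 11772 and 11983 CPM at 60 min, and of the 14 tested none passed the test of abundance. The 10 mature neutrophil markers summed to between 122 and 161 CPM at 0 min and between 106 and 120 CPM at 60 min, and the 12 macrophage and dendritic markers to between 83.8 and 105 CPM and between 74 and 95 CPM. The 10 erythroid markers summed to between 293 and 298 CPM at 0 min and between 247 and 258 CPM at 60 min, nearly all of it Tfrc, the transferrin receptor that dividing cells share. Meis1, of the transforming pair, had 0 reads in its 3′UTR in all 6 libraries, whereas Hoxa9 ran from 2299 to 2807 CPM. Both were delivered by retrovirus, and whether the viral transcripts carry the 3′UTRs counted here is not given. Whether these counts include the transgenes therefore cannot be told.

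Which transcripts changed in amount within the hour was asked first. Of 10010 genes tested, 346 (3.46%) changed by edgeR's quasi-likelihood test with Benjamini-Hochberg adjustment, 184 (1.84%) upward and 162 (1.62%) downward. Without 1 library the total moved by more than 1.5 times in 4 cases, to 130 without 0 min replicate 2, 220 without 0 min replicate 3, 152 without 60 min replicate 2 and 181 without 60 min replicate 3. Most changes were small: the median log2 change was 0.37 over the 178 risers and -0.48 over the 156 fallers that could also be tested for label.

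Txnip, an α-arrestin that binds thioredoxin and restrains glucose uptake, was the most abundant of the 10 largest risers. Its 3′UTR lies at mm10 chromosome 3, 96560530 to 96561857, plus strand. It stood at 212, 212 and 186 CPM in the 3 libraries at 0 min and at 491, 584 and 444 CPM in the 3 at 60 min. Every 60 min library was above every 0 min library, and the change was 2.53-fold (log2 1.34, SE 0.08, edgeR adjusted p = 6.21e-15). Arrdc3, a second α-arrestin, went from 7.95, 9.61 and 7.75 CPM to 17.9, 30.8 and 24.3 CPM (2.92-fold, edgeR adjusted p = 1.85e-05). The groups did not overlap there either, as the choice of the 10 required of both genes. Arrdc4, another of the family, rose from 17.7, 19.4 and 16.3 CPM to 24.4, 28.3 and 28.4 CPM (1.54-fold, edgeR adjusted p = 0.0371), a call that was lost in 4 of the 6 fits that left out a library, with adjusted p up to 0.154. Txnip and Arrdc4 are textbook targets of MondoA, a glucose-sensing factor that binds the carbohydrate response element. The element (both E boxes and their spacing, searched on both strands), was in 16 of 32851 RefSeq mouse promoter windows (0.0487%; 250 bases before to 50 after the start), in 9 of the 8142 tested genes with a window (0.111%) and in 1 of the 152 risers with one (0.658%). That one was Txnip, shown here because it is the only riser with the match. The element is in capitals, read 5′ to 3′ on the plus strand, within the window chr3:96557707-96558006 of GRCm38.
Txnip: ctgtgCACGAGGGCTGCACGAGcctcc

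Hlx, a homeobox transcription factor, rose from 6.21, 9.42 and 10.9 CPM to 28.7, 46.4 and 30.8 CPM (4-fold, edgeR adjusted p = 4.8e-08). Trib1, a pseudokinase that directs the breakdown of C/EBPα, rose from 3.49, 3.2 and 5.78 CPM to 13.6, 19.8 and 11.7 CPM (3.6-fold, edgeR adjusted p = 0.000144). Ccl3, a chemokine, rose from 31.6, 46.1 and 42.4 CPM to 133, 109 and 109 CPM (2.96-fold, SE 0.12 on the log2 scale, edgeR adjusted p = 5.71e-12). In all of them the lowest 60 min library was above the highest 0 min library, as the choice of the 10 required. Trim6, an E3 ubiquitin ligase, rose 3.12-fold and Tap2, a subunit of the peptide transporter that feeds MHC class I, rose 2.3-fold, from between 107 and 114 CPM to between 182 and 344 CPM. Btg1, an antiproliferative factor that binds the CCR4-NOT deadenylase, rose from 42.9, 43.3 and 35 CPM to 82.9, 85.2 and 67.6 CPM (1.98-fold, edgeR adjusted p = 8.77e-07). Rasgef1b, an exchange factor of the Ras family, had the largest fitted change of the 10, from 1.36, 3.01 and 0.76 CPM to 9.87, 7.07 and 13.6 CPM (log2 2.61, edgeR adjusted p = 0.000144), and was not called by DESeq2. Tlr2, a receptor for bacterial lipopeptides, was the weakest of the 10, from between 4.07 and 4.86 CPM to between 7.98 and 12.5 CPM (2.21-fold), and its edgeR adjusted p of 0.0386 went up to 0.214 and lost the call without any 1 of the 6 libraries. Hlx, Trib1, Trim6, Ccl3, Arrdc3, Txnip, Tap2 and Btg1 passed the test under all the alternatives run for abundance.

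**Figure D1:**
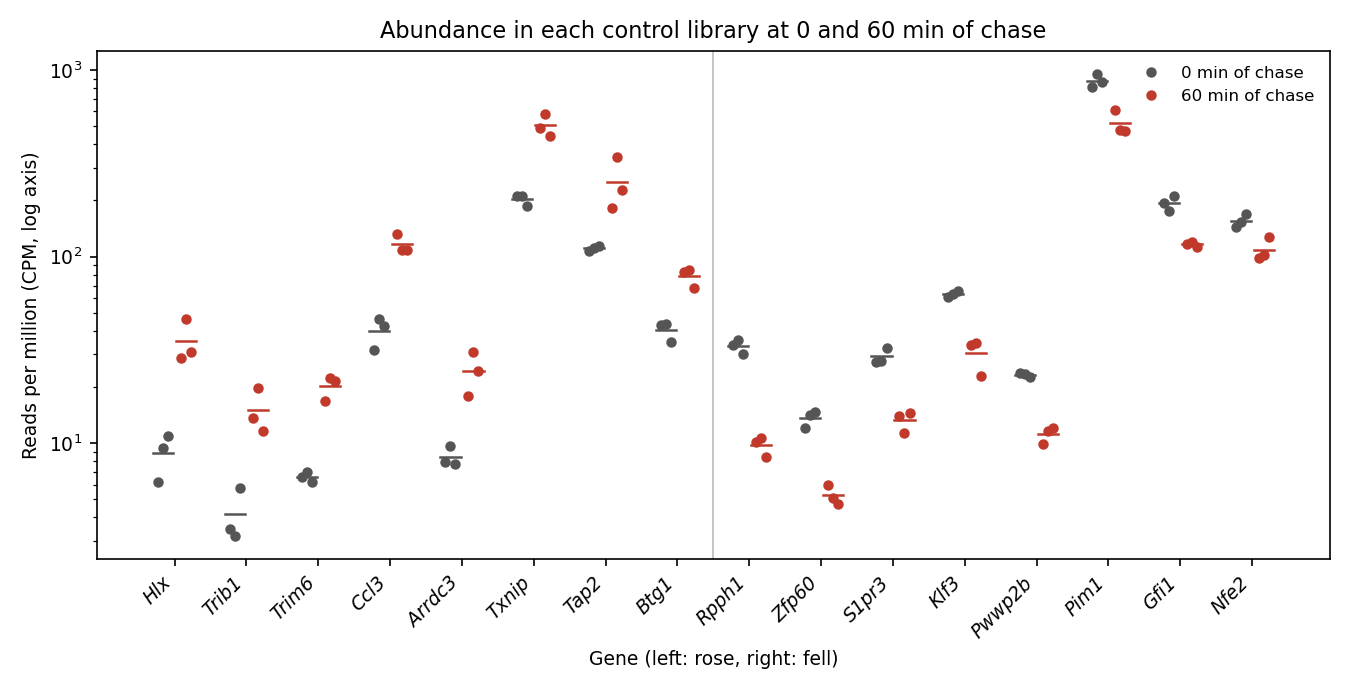
Abundance (CPM, log axis) of 8 genes that rose and 8 that fell, in each control library at 0 min (grey) and 60 min (red) of chase. Points are the 3 libraries of each time and bars their means. In each of the 16 genes the 3 points of one time lie apart from the 3 of the other, as for Txnip (186 to 212 CPM against 444 to 584 CPM) and Gfi1 (175 to 211 CPM against 113 to 120 CPM). Of all genes tested 20.8% were separated in this way, and the choice of the largest risers and fallers required it.

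Among the 10 largest falls, Rpph1, the RNA subunit of ribonuclease P, went from 33.4, 35.8 and 30.1 CPM to 10.2, 10.7 and 8.43 CPM (0.301-fold, edgeR adjusted p = 8.29e-08). It is made by RNA polymerase III and is not known to carry a poly(A) tail. S1pr3, a sphingosine-1-phosphate receptor, went from 27.4, 27.7 and 32.4 CPM to 14, 11.4 and 14.6 CPM (0.462-fold, edgeR adjusted p = 0.000144). Klf3, a Krüppel-like transcriptional repressor, went from 60.9, 63.3 and 65.8 CPM to 33.5, 34.5 and 22.8 CPM (0.486-fold, edgeR adjusted p = 2.57e-06). All 3 were separated without overlap, as the choice of the 10 required. Zfp60, a zinc finger protein, and Pwwp2b, a chromatin reader, fell to 0.391 and 0.487 of their start. These 5 calls passed under all the alternatives run. The remaining 5 of the 10 were Phf13 (0.393-fold), Gm8989 (0.459-fold), Hexim2 (0.479-fold), C3ar1 (0.513-fold) and Rcbtb2 (0.522-fold), and each lost its call without at least 1 library, C3ar1 without any of 4.

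Pim1, a serine/threonine kinase induced by IL-3 through STAT5, lies at chromosome 17, 29494748 to 29495465, plus strand. It went from 809, 954 and 858 CPM to 610, 476 and 469 CPM (0.601-fold, SE 0.07 on the log2 scale, edgeR adjusted p = 9.55e-09). Gfi1, a repressor needed for granulocyte development (chromosome 5, 107716655 to 107717739, minus strand), went from 193, 175 and 211 CPM to 117, 120 and 113 CPM (0.61-fold, edgeR adjusted p = 2.41e-07). Nfe2, a bZIP factor of megakaryocytes and erythroid cells, went from 144, 154 and 170 CPM to 98.3, 102 and 127 CPM (0.705-fold, edgeR adjusted p = 0.000557). None of these overlapped between times. In the list of myeloid transcription factors 4 of 19 tested genes fell and 0 rose, with a median log2 change of -0.15, where all genes tested had a median of -0.003 and 1.62% of them fell. The other 2 were Sox4 (0.806-fold, edgeR adjusted p = 0.0148, lost without 0 min replicate 2 or 60 min replicate 3, up to 0.13) and Id1, an inhibitor of bHLH factors (0.82-fold, adjusted p = 0.0451), whose call was lost in 8 of the alternatives, 5 of them with a library left out.

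Label was examined next. Over all covered T positions the conversion rate was 1.625, 1.67 and 1.625% at 0 min and 1.487, 1.518 and 1.452% at 60 min. The means were 1.64 ± 0.0261% and 1.49 ± 0.0332% (SD, n = 3), so 90.6% of the starting rate was left. The 2 times did not overlap, and the exact two-sided permutation test gave p = 0.1, the smallest that 3 against 3 libraries can give. Per gene, the question is which transcripts departed from that.

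Of 9061 genes with enough coverage and conversions, 684 (7.55%) changed in rate by edgeR's test, 683 (7.54%) downward and 1 (0.011%) upward. In 2293 genes (25.3%) the 3 rates at 60 min did not overlap the 3 at 0 min. Leaving out a 0 min library took the total of 684 to 445, 442 or 388, and leaving out a 60 min library took it to between 456 and 589. Relative to the rate of the whole library, 230 genes (2.54%) lost label faster and 38 (0.419%) more slowly. This relative total of 268 became 152, 150 and 176 without 0 min replicate 1, 0 min replicate 3 and 60 min replicate 2. Over the 7585 genes covered at 1000 or more T positions in each library, the median gene kept 89.6% of its starting rate, the 5th percentile kept 59.2% and the 95th kept 115%. Under 50% were 134 genes (1.77%), and 1663 (21.9%) were over 100%. The faster genes had a median rate of 2.07% at 0 min and 1.17% at 60 min, against 1.83% and 1.57% for all genes tested. The slower ones stood at 1.18% and 1.36%. Both sets were chosen by the ratio of those rates, which in part fixes where they start, so the rates are a description. The slower genes were also abundant: their median at 0 min was 1441 CPM, where that of all genes tested was 43.6 CPM, so they were tested with far more coverage.

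The 10 largest falls of the rate were taken from called genes covered at 1000 or more T positions in each library. Only genes without overlap between the times were taken. These 10 kept between 17.2% and 32.3% of their start. Nuak2, an AMPK-related kinase (chromosome 1, 132332382 to 132333488, plus strand), had rates of 1.78, 1.86 and 1.63% at 0 min and 0.486, 0.288 and 0.602% at 60 min. It kept 26.1 ± 9.06% of its start (SD, n = 3; edgeR adjusted p = 1.24e-05). Its abundance fell as well, to 0.624 of the start. Socs1, the feedback inhibitor of JAK kinases, had rates of 1.29, 1.69 and 2.23% at 0 min and 0.451, 0.688 and 0.401% at 60 min, and kept 29.6 ± 8.84% (edgeR adjusted p = 0.000182). Its abundance fell to 0.615 of the start (edgeR adjusted p = 0.0225), a call lost without any 1 of 4 libraries, with adjusted p up to 0.143. Ddit4, an inhibitor of mTORC1 induced by stress, had rates of 1.51, 1.8 and 1.99% at 0 min and 0.434, 0.691 and 0.579% at 60 min, and kept 32.2 ± 7.3% (edgeR adjusted p = 3.2e-08). Klf10, a Krüppel-like factor induced by TGF-β, kept 30.8 ± 11.8% (edgeR adjusted p = 0.000232) while its abundance rose 1.79-fold. None of these 4 had a 60 min library that reached the rate of a 0 min library, as the choice of the 10 required. Of the others among the 10 largest falls, Gm45915 kept 30.6% of its start and passed under all the alternatives, whereas Zfp599 (17.2%), Gpr146 (28.2%), Armc5 (30.2%), S1pr3 (31.7%) and Cmtr2 (32.3%) did not pass when all 12 control libraries were fitted together. Gpr146, Armc5 and S1pr3 also lost the call with some libraries left out. Ccng2, an atypical cyclin, kept as little with less coverage (853 T positions in its lowest library). Its rates were 2.93, 3.4 and 3.28% at 0 min and 0.839, 0.766 and 0.586% at 60 min (22.8 ± 4.06% kept, edgeR adjusted p = 0.000416), and the call was lost under none of the alternatives.

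**Figure D2:**
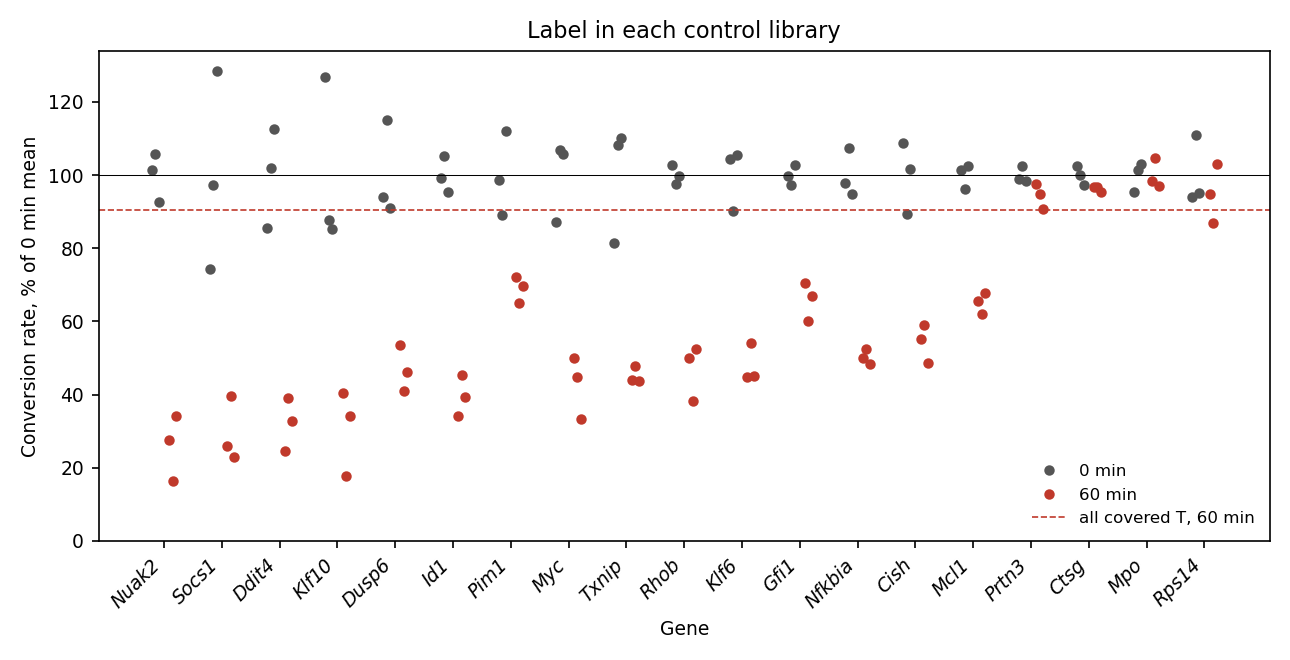
Conversion rate of 19 genes in each control library, as a percentage of the gene's mean at 0 min; grey points are the 3 libraries at 0 min and red points the 3 at 60 min. The solid line marks 100% and the dashed line the 90.6% that all covered T positions kept. Nuak2, Socs1, Ddit4 and Klf10 lie lowest at 60 min, and Ctsg (96.3% kept) and Mpo (100% kept) lie near their start.

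Stable transcripts make the contrast. Ctsg, the neutrophil protease cathepsin G, had rates of 1.59, 1.55 and 1.51% at 0 min and 1.5, 1.5 and 1.48% at 60 min (96.3 ± 0.619% kept). Mpo, myeloperoxidase, kept 100 ± 4.35%. Neither passed the test of the rate, with edgeR adjusted p of 0.497 and 0.993. Of 72 ribosomal protein genes tested for label, 0 fell by edgeR's adjusted p, with a median log2 change of 0.00, and 6 were slower than the library. Of 76 oxidative phosphorylation genes 1 fell, with a median of -0.03, and of 17 heat shock and chaperone genes 1 fell, with a median of -0.02. All genes tested had a median log2 change of -0.17 and a called share of 7.54%.

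Abundance and rate together sorted the transcripts into kinds. Of the risers tested for label, 48 of 178 (27%) had a falling rate, and of the fallers 53 of 156 (34%), where 582 of 8725 genes not called for abundance (6.67%) had one. The labelled pool separated them. Among the 48 risers with a falling rate, the pool passed the test downward in 4 (Ccnl1, Dusp6, Frat2 and Neat1), upward in 2 (Snrpf and Tap2) and in neither direction in 42. Among the 53 fallers with a falling rate, the pool fell in all 53, a direction that 2 falling components largely fix. Of the genes with no call in abundance, 274 had a fall in both rate and pool, and 308 had a falling rate and no call in the pool. The pool fell in 436 genes of 9061 (4.81%) and rose in 22 (0.243%). The total of 458 (5.05%) became 261, 289 and 286 without 0 min replicate 2, 0 min replicate 3 and 60 min replicate 3.

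Txnip shows the first kind. Its rate went from 1.25, 1.66 and 1.69% to 0.674, 0.732 and 0.672% (45.1 ± 2.2% kept, edgeR adjusted p = 7.67e-13). Its labelled pool was 96.2, 128 and 116 conversions per 1000000 reads at 0 min and 123, 158 and 111 at 60 min. Those groups overlapped, and the pool did not pass the test (log2 0.23, SE 0.11, edgeR adjusted p = 0.282). Ccl3 kept 50 ± 3.04% of its rate (edgeR adjusted p = 0.000269, and 0.0547 with all 12 control libraries in the fit), and its pool went from 11.1, 15.8 and 16.7 to 25.9, 18.7 and 20.6 conversions per 1000000 reads (log2 0.59, edgeR adjusted p = 0.148). Dusp6, the phosphatase that shuts off ERK, was different. Its abundance rose from 127, 102 and 107 CPM to 128, 161 and 134 CPM (1.28-fold, edgeR adjusted p = 0.0276, up to 0.287 under the alternatives and lost without 4 of the 6 libraries), its rate kept 46.9 ± 6.43% of the start (edgeR adjusted p = 2.31e-08), and its pool fell from 68.7, 67.1 and 55.8 to 39.5, 37.9 and 35.1 conversions per 1000000 reads (edgeR adjusted p = 0.000509).

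Pim1 and Gfi1 show the second kind. The pool of Pim1 went from 200, 210 and 237 to 113, 78.5 and 87.1 conversions per 1000000 reads (log2 -1.20, edgeR adjusted p = 2.1e-12), and its rate kept 68.8 ± 3.85%. The pool of Gfi1 went from 109, 95.7 and 120 to 46.4, 40.4 and 42.1 (log2 -1.32, edgeR adjusted p = 4.87e-11), with 65.9 ± 5.41% of the rate left. Both lost abundance and label at once, with no overlap in either quantity. S1pr3 and Nuak2 belong to the same class.

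Myc shows the third, in which the rate fell and abundance was not called. Myc, the growth-promoting transcription factor (chromosome 15, 61989909 to 61990361, plus strand), stood at 66.3, 65 and 74.9 CPM at 0 min and at 58.3, 73.5 and 66.4 CPM at 60 min, groups that overlapped (log2 -0.04, SE 0.11, edgeR adjusted p = 0.896). Its rate went from 1.78, 2.18 and 2.16% to 1.02, 0.917 and 0.68%, so that 42.8 ± 8.55% was kept (edgeR adjusted p = 1.01e-06), and its pool from 33, 38.4 and 45.5 to 16, 20 and 12.9 conversions per 1000000 reads (edgeR adjusted p = 2.25e-05). Rhob, a small GTPase induced by growth factors, kept 46.9 ± 7.59% of its rate with a log2 abundance change of -0.14 (adjusted p = 0.573). Cish, a STAT5-induced feedback inhibitor, stood between 210 and 238 CPM at 0 min and between 211 and 237 CPM at 60 min, and its rate went from 2.03, 1.67 and 1.9% to 1.03, 1.1 and 0.908% (54.2 ± 5.12% kept, edgeR adjusted p = 5.8e-08). Nfkbia, the inhibitor of NF-κB, kept 50.4 ± 2.08% (edgeR adjusted p = 2.38e-09) with a log2 abundance change of 0.23 that did not pass (adjusted p = 0.0719). Ddit4 belongs here too, with a log2 abundance change of -0.03 (adjusted p = 0.932).

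**Figure D3:**
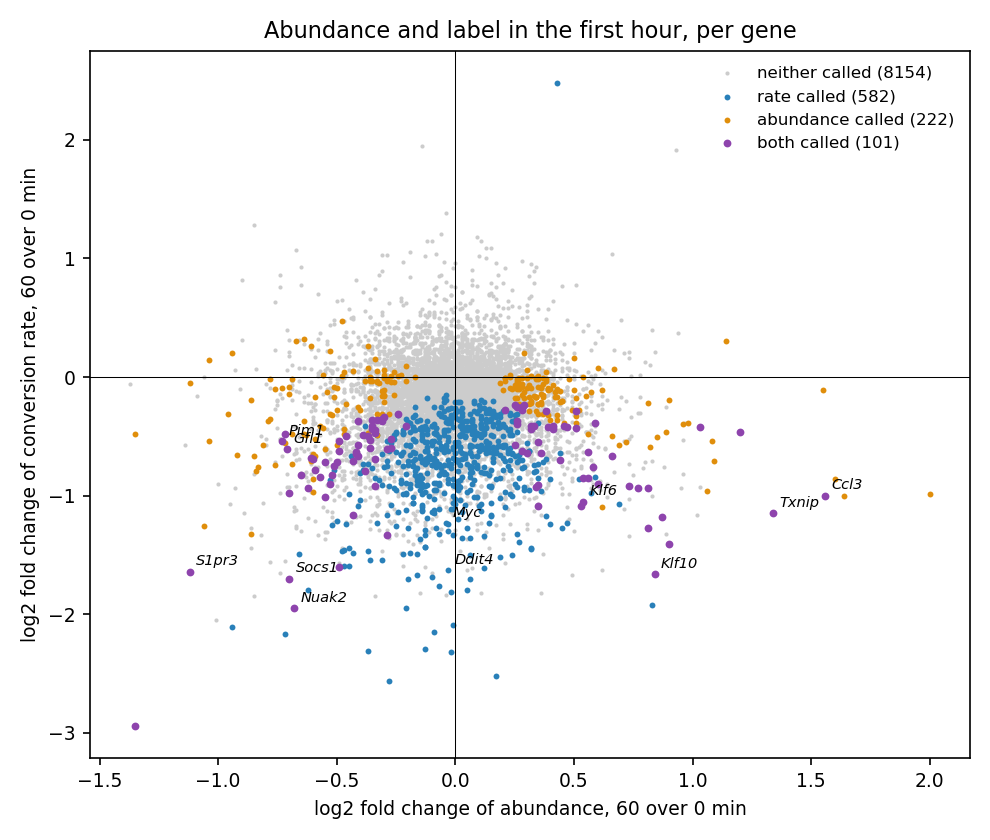
Each point is 1 of 9059 genes in both tests; the horizontal axis is the log2 fold change of abundance and the vertical axis that of the conversion rate, 60 over 0 min. Colours mark genes called for neither (8154), for rate (582), for abundance (222) and for both (101). Txnip, Ccl3 and Klf10 lie at the lower right, Pim1, Gfi1, Socs1 and S1pr3 at the lower left, and Myc and Ddit4 below the centre.

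Gene lists by pathway were then counted. The lists here and above were chosen with earlier results of these data known. Their shares beside those of all genes are therefore a description. The immediate early list (30 genes of the first transcriptional wave after growth factors) had 21 genes tested for abundance, of which 5 rose (Fosb, Jun, Klf10, Klf2 and Klf6) and 0 fell, with a median log2 change of 0.14, where 1.84% of all genes rose and 1.62% fell. Klf6 went from 80.5, 91.9 and 83.9 CPM to 119, 148 and 99.5 CPM (1.45-fold, edgeR adjusted p = 0.0015), and Jun, a component of AP-1, from 3.49, 3.96 and 4.71 CPM to 9.87, 17.8 and 9.04 CPM (3.04-fold, adjusted p = 0.00245). Without 60 min replicate 2 the adjusted p of Klf6 was 0.0658 and that of Jun 0.0901, and without 60 min replicate 1 that of Klf10 was 0.0664. Fosb, with 0 reads in 0 min replicates 1 and 2 and 1.22 CPM in replicate 3, was at 3.17, 5.99 and 3.29 CPM at 60 min (edgeR adjusted p = 0.00583), and its call was lost by DESeq2 and without 2 of the libraries. Not all of the list was called: Ier2 stood between 38.6 and 48.8 CPM at 0 min and between 43 and 54 CPM at 60 min (edgeR adjusted p = 0.642). Egr1, at low counts, stood between 1.06 and 3.39 CPM and between 3.7 and 6.33 CPM. Those groups did not overlap, but the gene did not pass (edgeR adjusted p = 0.181). Fos was below the filter on low counts. Label fell in 8 of 15 list members (Btg2, Ier3, Ier5, Junb, Klf10, Klf6, Myc and Rhob), with a median log2 change of -0.96, where 7.54% of all genes fell and their median was -0.17. Klf6 kept 48 ± 5.25% of its rate (edgeR adjusted p = 1.25e-05). A CArG box, the serum response element, was in 535 of the 32851 promoter windows (1.63%), in 119 of the 8142 tested genes with a window (1.46%) and in 2 of the 152 risers with one (1.32%), Arrdc4 and Smn1.

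The 3 feedback lists and the myeloid factors are to be read against 3.46% of all genes called in abundance, and 7.54% with a falling rate and a median log2 rate change of -0.17. The ERK feedback list had 1 riser of 11 (Dusp6) and a fall of label in 3 of 8, with a median log2 rate change of -0.90. Dusp2, a nuclear phosphatase of ERK, kept 34.2 ± 10.6% of its rate and Spred1, an inhibitor of Ras signalling, kept 58.4 ± 7.51%. In the list of STAT-dependent cytokine feedback, 1 of 15 genes rose (Mcl1) and 2 fell (Pim1 and Socs1), and label fell in 8 of 15 (Cish, Mcl1, Pim1, Pim3, Socs1, Socs2, Socs3 and Stat3), with a median of -0.54. Mcl1, an anti-apoptotic BCL2 protein, went from 292, 354 and 330 CPM to 386, 395 and 391 CPM (1.22-fold, edgeR adjusted p = 0.00885, but up to 0.0585 without 60 min replicate 2 or 3), and its rate from 1.96, 1.86 and 1.98% to 1.27, 1.2 and 1.31% (65.2 ± 2.87% kept, edgeR adjusted p = 3.52e-07). Its label call passed under all the alternatives. NF-κB feedback had 0 of 12 called in abundance by edgeR and 1 of 10 in label, Nfkbia. Myeloid transcription factors had 9 of 18 called in label (Cebpd, Gfi1, Hhex, Hoxa9, Id1, Id2, Myb, Nfe2 and Runx1), with a median of -0.27. Id1 kept 39.7 ± 5.55% of its rate (edgeR adjusted p = 1.5e-10). The counted 3′UTR of Hoxa9, part of the transforming pair, kept 88%, a call (edgeR adjusted p = 0.0216) that did not stand without 5 of the 6 libraries.

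The metabolic and stress lists are given beside all genes tested, of which 1.84% rose, 1.62% fell and 7.54% had a falling rate. Of 26 cholesterol synthesis and SREBP genes 0 rose and 3 fell, with a median log2 abundance change of -0.11. Hmgcs1, which makes HMG-CoA, went from 183, 193 and 196 CPM to 166, 143 and 135 CPM (0.785-fold, edgeR adjusted p = 0.00705, up to 0.0963 under the alternatives and lost without 60 min replicate 2 or 3). Insig1 (0.787-fold) and Lss (0.665-fold) had adjusted p of 0.0423 and 0.0392, and each call was lost in 8 alternatives. Of 19 p53 targets 0 were called in abundance by edgeR, and label fell in 4 of 19 (Bbc3, Cdkn1a, Mdm2 and Pmaip1). Cdkn1a, the cell cycle inhibitor p21, kept 70.2 ± 1.31% of its rate. Of 30 ATF4 response genes 1 rose, Slc3a2 (the heavy chain of the amino acid antiporter, 1.27-fold, edgeR adjusted p = 0.00138, but 0.0559 without 0 min replicate 2), and label fell in 4 of 29. Of 13 FoxO and MondoA targets 3 rose, the α-arrestins above, and 1 fell, Cdkn1b, whose edgeR adjusted p of 0.0384 rose to as much as 0.187 and lost the call without any 1 of the 6 libraries. Among 17 heat shock and chaperone genes Hsp90ab1 and Hsp90b1 rose, by 1.21-fold for Hsp90ab1 (adjusted p = 0.00174, and 0.072 without 60 min replicate 2). The call of Hsp90b1 (edgeR adjusted p = 0.031) was lost without 4 of the 6 libraries.

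The remaining lists are given by count, beside 3.46% of all genes called in abundance and 7.54% with a fall of label. Glycolysis had 1 riser of 18, Slc16a1, and a fall of label in 1 of 17, Hk2. Hypoxia had 1 faller of 16, Vegfa, and 2 of 15 in label. Ribosome biogenesis had 1 riser (Fbl) and 1 faller (Wdr12) of 30, and 5 of 30 in label. DNA replication had 1 riser of 26, Orc6, and 5 of 26 in label, with Cdt1, the licensing factor, at 61 ± 6.7% of its rate. Mitosis had 2 fallers of 26, Hmmr and Ube2c, and 1 of 26 in label. The interferon list had 1 faller of 16, Gbp7, and 2 of 12 in label. The abundance calls of Slc16a1, Vegfa, Fbl, Wdr12, Orc6, Hmmr, Ube2c and Gbp7 were each lost without at least 1 library. Uridine uptake and salvage, the route by which 4SU enters RNA, had 0 of 13 called in abundance by edgeR and 2 of 13 in label (Uck1 and Uck2), neither of which passed without 0 min replicate 1 or 0 min replicate 3. Ribosomal protein genes had 4 risers and 4 fallers of 80, and several of them have near-identical pseudogenes that can share reads. Of these, Rps14 went from 3550, 2896 and 2795 CPM to 3851, 4161 and 4095 CPM (1.33-fold, edgeR adjusted p = 1.98e-05).

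**Figure D4:**
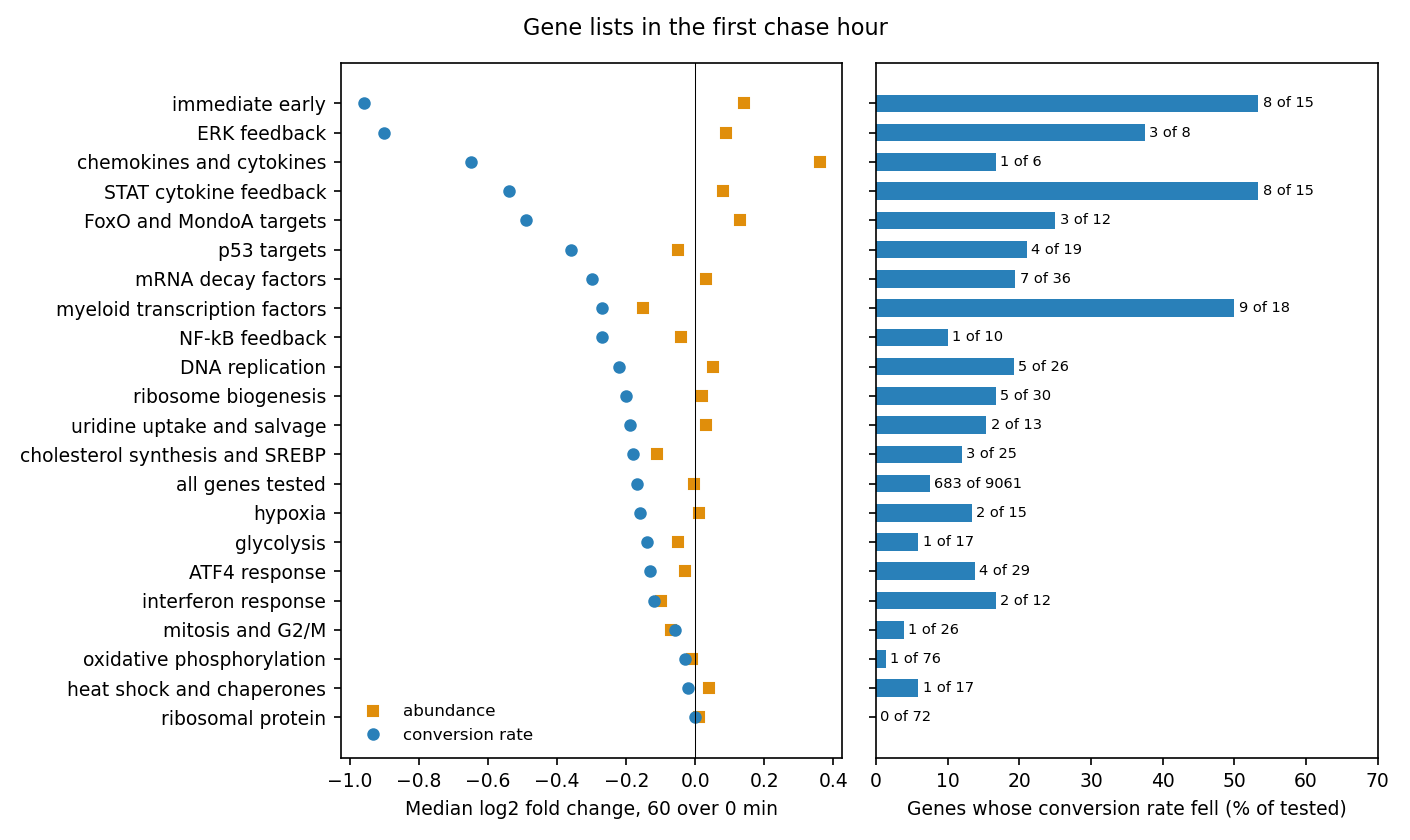
Left, the median log2 fold change (60 over 0 min) of abundance (squares) and of conversion rate (circles) in each gene list and over all genes tested. Right, the share of each list's tested genes whose conversion rate fell by edgeR's test, with the counts. The immediate early list lies farthest left in conversion rate (median -0.96, 8 of 15 called) and ribosomal proteins lie at 0.00 (0 of 72). The lists were chosen with earlier results of these data known.

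Among mRNA decay factors, 1 of 36 rose (Btg1) and label fell in 7 of 36 (Btg2, Cnot4, Cnot6l, Rc3h1, Tob2, Tut4 and Zfp36l2), with a median log2 rate change of -0.30, where 7.54% of all genes fell and their median was -0.17. Tut4 itself, deleted in the cDKO cells but not in these, stood at 68.3, 75.3 and 86.5 CPM at 0 min and at 85.9, 91.2 and 88.8 CPM at 60 min (adjusted p = 0.244) and kept 73.3 ± 7.13% of its rate (edgeR adjusted p = 0.0182, up to 0.302 under the alternatives). Tut7 stood between 34.7 and 45.2 CPM and between 37.8 and 45.6 CPM. Cnot6l, a deadenylase of CCR4-NOT, kept 75.6 ± 6.04% (edgeR adjusted p = 8.34e-05).

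The AU-rich nonamer TTATTTATT is a known element of unstable mRNAs. It was searched on the sense strand of the canonical 3′UTR of each gene in GENCODE M39. It was present in 788 of 8733 genes tested for label (9.02%), in 33 of 217 genes faster than the library (15.2%) and in 1 of 36 slower ones (2.78%). These sets differ in 3′UTR length, with medians of 1393, 1990 and 412 bases, and per 10000 bases they held 0.677, 0.855 and 2.4 sites, the last all in 1 gene. Among 3′UTRs of 500 to 1499 bases the share was 5.57% of all and 15.5% of the faster genes (11 of 71), among longer ones 14.5% and 16.9%, and among shorter ones 1.94% and 0 of 16. Windows are shown for 5 genes described above whose label fell and whose 3′UTR holds the nonamer and were picked after their values were seen. The first nonamer of each 3′UTR is in capitals, read 5′ to 3′. Cish holds 2 overlapping copies and Pim1 holds 3, and their later copies run into the lower case.
Nuak2: atgtgctgacTTATTTATTtttttgtgat
Cish: tatacagtatTTATTTATTtattctcctt
Nfkbia: ggaccacgttTTATTTATTgtgcttttga
Pim1: tttaatgtatTTATTTATTtatttatttg
Cmtr2: ttgttagaggTTATTTATTcatgacagga

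These 5 kept between 26.1% (Nuak2) and 68.8% (Pim1) of their rate. Zfp599, which kept 17.2%, and Cnot6l, which kept 75.6%, also hold the nonamer. The nonamer was not in the 3′UTR models of Ddit4, Dusp6 or Ccl3, which kept 32.2, 46.9 and 50%.

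The control libraries at 180 and 540 min, which share the 0 min libraries with the comparison above, show what followed. Of the 184 risers 118 were nearer to their start at 180 min than at 60 min, and of the 162 fallers 134 were. Since the genes were chosen for their 60 min values, part of such a return follows from the choice. Txnip averaged 234 CPM at 180 min and 249 CPM at 540 min, back near its start. Pim1 went on falling to 412 CPM at 180 min and stood at 716 CPM at 540 min, and Gfi1 stood at 152 and 199 CPM.

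**Figure D5:**
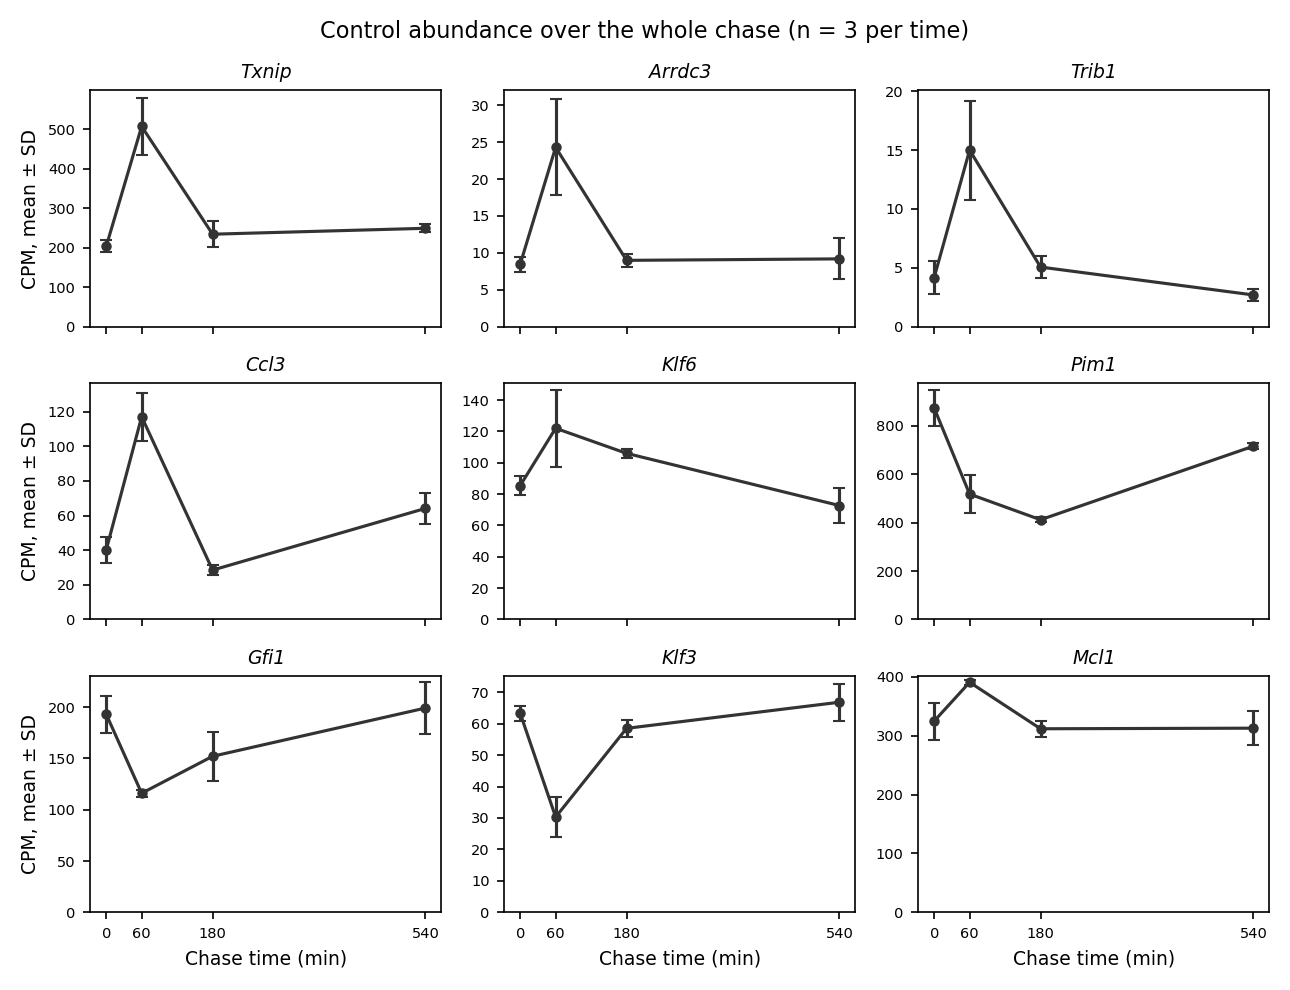
Mean abundance (CPM, bars are SD, n = 3 libraries per time) of 9 genes in control cells at 0, 60, 180 and 540 min of chase, each panel with its own axis from 0. Txnip stands highest at 60 min and at 234 CPM at 180 min, and Pim1 is lowest at 180 min, at 412 CPM.

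The cDKO cells were sampled at the same 2 times, and their libraries started with less label. Their library-wide rates ran from 0.5418 to 0.8451% at 0 min and from 0.5196 to 0.789% at 60 min, and replicate 3 was the lowest at both times, apart from the other two. Beyond the fits below without cDKO replicate 3 or with the library-wide rate in the offset, the part of these differences was not tested. Whether the first-hour change differed between genotypes was tested as an interaction over 12 libraries. By edgeR 0 of 10495 genes passed for abundance (307 at an unadjusted p under 0.05, and 0 with 250 by DESeq2), and 0 of 9185 for the conversion rate (166 unadjusted). The replicate numbers pair the cDKO libraries in abundance, and with a block for the number within each genotype 2 genes passed for abundance, both lower in cDKO: Ccl3 (log2 -1.55) and C2cd4a (log2 -2.97), each with an edgeR adjusted p of 0.0182. For the rate 1 passed, Cxcr4, the CXCL12 receptor (log2 0.75, edgeR adjusted p = 0.00753). Without cDKO replicate 3, left out after its rate had been seen, 0 passed in either, with or without the block (547, 488, 680 and 504 unadjusted by edgeR for abundance and rate without it and then with it).

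Taken alone, the cDKO cells had 0 genes called of 10034 in abundance and 0 of 7958 in rate (375 and 233 unadjusted by edgeR). With the replicate block, 6 genes (0.0598%) were called in abundance: Fosb, Klf6, Hlx, Txnip and Trib1 rose (0.0498%) and Rpph1 fell (0.00997%). The log2 change of Txnip was 1.03 (SE 0.13, edgeR adjusted p = 0.00713) and that of Hlx 1.39. All 6 were also called in control, in the same direction. In rate 109 (1.37%) were called with the block, 108 of them downward (1.36%) and 1, Ccdc22, upward (0.0126%). Of those 108, 86 (79.6%) were among the 683 that fell in control, which is 12.6% of the control genes. The 683 were 7.54% of the 9061 genes tested in control, and 665 of them were among the 7958 tested in cDKO cells. Myc was one of the 86, with a log2 rate change of -1.19 (edgeR adjusted p = 1.2e-05), and Pim1 another (-0.52, edgeR adjusted p = 3.95e-05). Without replicate 3 the cDKO count was 0 of 10066 in abundance (463 unadjusted by edgeR) and 78 of 7387 in rate. Of the 183 control risers measured in cDKO cells 162 changed in the same direction there, with a median log2 change of 0.22 against 0.38 in control, and of the 159 fallers 151 did, with -0.21 against -0.49. Of 665 genes whose rate fell in control 619 had a lower rate at 60 min in cDKO, with medians of -0.38 and -0.64, where 49.3% of all genes had a positive abundance change and 32.5% a positive rate change in cDKO cells. The medians in control cells are of genes chosen by those same values, so their larger size is no comparison of genotypes.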

How the data were processed

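SLAM-seq was done on total RNA of 24 libraries, of which the 6 control libraries at 0 and 60 min were analysed, with the control 180 and 540 min and the cDKO 0 and 60 min libraries as context. The other 6 were not used here. The authors made 3′ end libraries with a QuantSeq FWD kit, sequenced single reads of 85 bases and, per the file headers, ran SlamDunk 0.4.3 over mm10 3′UTR intervals. The deposited tables hold, per interval, whole-number counts of reads, covered T positions and conversions, and CPM per filtered read of the library, from which the depth was taken. Mapping, multimapper and variant settings are not given in the sources used here.

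Of 39419 intervals 39096 (99.18%) were named through RefSeq accessions. Duplicates were dropped, the longest of overlapping intervals was kept and 28698 intervals were summed to 20700 genes. Of the 10010 genes tested, 839 overlap another gene's interval. edgeR 4.0.16 in R 4.3.3 (quasi-likelihood, TMM and filterByExpr for abundance) was used with Benjamini-Hochberg adjustment and a threshold of 0.05. Label was tested as conversions with the log of coverage as offset, in genes with coverage of at least 100 in each of the 6 libraries and 50 conversions in all. The relative test added the library-wide rate to the offset, and the pool test used the TMM library size. The fits were tested on simulated data. DESeq2 1.42.0, other filters, normalizations, sample sets and leaving out each library were the alternatives.

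Named genes were the 10 called genes with the largest change each way in abundance (10 CPM or more in the higher group, no overlap of the 3 and 3 libraries), the 10 with the largest fall and up to 5 with the largest rise of the rate (coverage of 1000 or more, no overlap), up to 4 members per list by p in abundance and 3 in label, and Tut4 and Tut7. Further list members and marker genes named in the text were chosen after their values were seen. The members and lists were chosen with earlier results of these data known. Replicates of one time differed by more than sampling noise (chi-square per degree of freedom 3.35 to 4.81), so none was taken as a repeat of another. Same-numbered cDKO libraries at 0 and 60 min deviated together in abundance (correlations of 0.26, 0.51 and 0.58, against -0.51 to -0.01 for other numbers; 0.02 to 0.05 in rate), so the numbers pair them, a pairing taken from the data and not from the labels. Fits with that block in cDKO cells alone, and without cDKO replicate 3, were added after the data were seen. Counting error aside, p-values measure the spread between these libraries.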

Additional observations from a re-analysis of the deposited data

How the results depend on the processing

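The count of abundance changes was 346, and 297 by DESeq2, 465 without a filter, 305 summed over all intervals, 381 without TMM and 217 with all 12 control libraries in one fit. Leaving out a library gave 130 to 491. For the conversion rate the count was 684, and 542 by DESeq2, 748 at coverage of 1000, 681 without a conversion minimum, 621 summed over all intervals, 503 for reads with a conversion and 111 with all 12 control libraries. Leaving out a library gave 388 to 589, and for the relative test (268, or 341 at coverage of 1000) 150 to 278, and for the pool (458, or 513 without TMM) 261 to 396. The library-wide log2 change of -0.143 was -0.147 without the 10 most covered genes, -0.214 for the median gene and -0.158 to -0.126 without a library. Of 54 named genes called in abundance 19 were called under all the alternatives, and of 57 in label 26; 0 reversed. Counts of called list members moved by over 1.5 times downward in 117 and upward in 28 of the list-by-alternative fits, and 605 did not. The cause was not tested.

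In the control libraries at 0 and 60 min the replicate numbers do not pair the samples gene by gene: correlations of same-numbered deviations ran from -0.02 to 0.03. In the library-wide rate, replicate 2 was the highest of the control libraries at all 4 times. Adding the replicate block gave counts of 312 for abundance, 759 for label, 325 for the relative test and 398 for the pool. A replicate block within each genotype gave 2 genes for the genotype difference in abundance (Ccl3, log2 -1.55, and C2cd4a, log2 -2.97, both with edgeR adjusted p = 0.0182) and 1 for label (Cxcr4, log2 0.75, edgeR adjusted p = 0.00753). Without the block, the library-wide rate in the offset gave 0 (448 unadjusted by edgeR). In cDKO cells alone the counts of 0 became 6 for abundance and 109 for label with the block, and 0 and 78 without cDKO replicate 3; these, and the genotype differences without that replicate (0 by edgeR in all 4 fits, with 488 to 680 unadjusted), were added after the data were seen. Depth limits the low genes, of which many hold under 10 CPM.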

Other observations

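Some groups were picked after their values were seen, and are given as counts without a test. Genes without a protein-coding annotation, pseudogenes included, were 211 of the 10010 genes tested for abundance (2.11%). They were 3 of the 184 risers (Neat1, Snhg6 and Snhg8) and 9 of the 162 fallers (5.56%), among them Malat1, Kcnq1ot1, Snhg3 and the pseudogene H2af-ps2. Of 270 zinc finger genes with a Zfp symbol 1 rose and 8 fell, and the rate fell in 35 of 219 (16%), with a median log2 rate change of -0.58. Of all genes tested 1.84% rose, 1.62% fell and 7.54% fell in rate, with a median rate change of -0.17. Of 49 histone genes 0 rose and 4 fell by edgeR, with a median log2 abundance change of -0.16; the fit of the rate covered 19 of them and called 2. Most histone mRNAs are known to lack a poly(A) tail.

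Relative to the library 38 transcripts lost label more slowly, with a median abundance of 1441 CPM at 0 min. The 3 described here were picked after their values were seen. S100a11, a calcium-binding protein, had a rate of 1.68 ± 0.0191% at 0 min and 1.8 ± 0.078% at 60 min (SD, n = 3), Gpx1, glutathione peroxidase, 1.42 ± 0.0528% and 1.41 ± 0.0373%, and Actb, β-actin, 1.38 ± 0.0346% and 1.34 ± 0.0339%. The 1 gene whose rate rose by the test, Mdrl, averaged 3.03 CPM at 0 min and had rates of 0.497 ± 0.443% and 2.84 ± 0.932%. Of the 38, Tnfsf13 and Tnfsfm13 share an interval and count the same reads. Wdr89 and Rplp2-ps1 had near-identical values at 0 min, 4444 and 4437 CPM with rates of 0.675 and 0.673%. Whether they share reads was not tested.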
